A study of Mus musculus with 12 samples.

Results

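The genes of the primary (azurophil) granule, with the machinery that activates and inhibits their products, were followed across 4 genotypes in granulocyte-monocyte precursors (GMPs) of mouse bone marrow. The 8 members were Mpo, Elane, Prtn3, Ctsg, Prss57, Ctsc, Serpinb1a and Ms4a3. All 8 are called primary granule genes below for short, although Serpinb1a acts outside the granule and Ms4a3 is a marker of GMPs. They were chosen by gene name, as the probe sets annotated to each gene under its current symbol or an older one. All 8 were found, as 8 of 14201 genes and 55 of the 98975 probe sets that carry 1 gene symbol. The array annotation lists Elane as Ela2 and Prss57 as Prssl1. GMPs from C57BL/6 mice were isolated by flow sorting, and their amplified RNA was hybridised to Affymetrix Mouse Gene ST arrays. There were 12 arrays, 3 for each genotype. One group was wild type (WT), one lacked Gfi1 through a knock-out (KO), one carried the common human GFI1 as a knock-in (wtKI), and one carried a human GFI1 variant as a knock-in (SNP). The labels give no age and no number of animals behind an array, and they do not say whether the 3 arrays of a genotype come from 3 different mice. The p-values therefore describe the spread among these samples, some of which could be technical.

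Primary granules are the first granules a neutrophil precursor makes, and their contents kill and digest engulfed microbes. The genes for these contents are transcribed mainly at the GMP and promyelocyte stages and are switched off as the cell matures. Myeloperoxidase (Mpo) is a haem enzyme that makes hypochlorous acid, and neutrophil elastase (Elane), proteinase 3 (Prtn3), cathepsin G (Ctsg) and neutrophil serine protease 4 (Prss57) are serine proteases. The proteases are made as inactive precursors that the dipeptidyl peptidase cathepsin C (Ctsc) trims into active enzymes, and the serpin Serpinb1a inhibits them outside the granule. Ms4a3 is a membrane protein widely used to mark GMPs and their descendants. GFI1 is a zinc-finger repressor needed for neutrophil differentiation. It has been reported to repress the elastase gene, ELANE, in work on human neutropenia.

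The stretches just before the start sites of the protease and peroxidase genes are shown because binding sites for myeloid transcription factors have been described at such promoters and because Elane and Prtn3 are neighbours on chromosome 10. RefSeq sequences of the GRCm38.p6 assembly gave 6 of the 8 members a promoter, all but Prss57 and Serpinb1a. Each sequence shown is 250 bases long, reads 5′ to 3′ in the direction of transcription and ends just before the start site. The Ctsc window, counted below but not shown, ends at 88278084 on chromosome 7, past the RefSeq gene start at 88278024. Capitals mark GAGGAA, the core bound by the myeloid factor PU.1, and AACGG, a core bound by Myb, in either orientation.
Elane, chr10:79886062-79886311, plus strand: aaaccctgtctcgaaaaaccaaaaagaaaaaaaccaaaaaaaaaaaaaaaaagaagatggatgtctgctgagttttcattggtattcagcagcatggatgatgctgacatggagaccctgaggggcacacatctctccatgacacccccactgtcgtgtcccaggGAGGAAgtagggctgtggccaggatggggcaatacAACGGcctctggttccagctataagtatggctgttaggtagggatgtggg
Prtn3, chr10:79879417-79879666, plus strand: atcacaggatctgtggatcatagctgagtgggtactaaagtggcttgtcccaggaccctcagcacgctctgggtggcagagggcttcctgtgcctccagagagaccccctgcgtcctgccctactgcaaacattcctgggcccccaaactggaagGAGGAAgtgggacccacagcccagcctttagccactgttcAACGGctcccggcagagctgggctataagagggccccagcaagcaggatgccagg
Mpo, chr11:87793534-87793783, plus strand: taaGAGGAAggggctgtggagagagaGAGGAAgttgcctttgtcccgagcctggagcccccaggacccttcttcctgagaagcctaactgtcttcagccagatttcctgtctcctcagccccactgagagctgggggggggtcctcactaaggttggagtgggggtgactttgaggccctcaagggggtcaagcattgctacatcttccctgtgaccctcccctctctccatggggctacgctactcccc
Ctsg, chr14:56102575-56102824, minus strand: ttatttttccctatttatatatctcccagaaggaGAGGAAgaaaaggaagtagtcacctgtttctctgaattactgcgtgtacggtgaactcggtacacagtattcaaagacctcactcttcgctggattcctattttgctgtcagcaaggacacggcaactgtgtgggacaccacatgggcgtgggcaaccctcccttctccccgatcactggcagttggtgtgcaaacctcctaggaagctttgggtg
Elane and Prtn3 have the same arrangement, with GAGGAA at -85 and -95 and AACGG at -50 and -55 from the start site. Mpo has GAGGAA at -247 and -224 and no AACGG, and Ctsg has GAGGAA at -216 and no AACGG in this window. Both strands were searched. GAGGAA occurred in 5 of the 6 member promoters and in 23.3% of the 32851 promoters of the table, and AACGG occurred in 2 of 6 and in 14.5%. ATTGC, a short piece of the C/EBP motif, occurred in 2 of 6, Elane at -57 and Mpo at -56, and in 23.1% of all. The GFI1 core AATC occurred in 2 of 6, Mpo at -150 and Ctsg at -124, and in 69.0% of all. Elane and Prtn3 hold no AATC in this window. The motifs were chosen after the sequences had been read, and a match is a description of the letters only.

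The values are log2 signals, so a difference of 1 is a doubling. The arrays KO 1 and SNP 1 stood apart from the rest. Their median correlation with the other arrays was 0.69 and 0.62, against 0.83 to 0.88 for the other 10. The 5th percentile of their probe set values was 4.40 and 4.39, against 5.30 to 5.65 on the other 10. Their medians were 7.37 and 7.32, against 7.38 to 7.58. Results are therefore given for all 12 arrays and, where they move, for the 10 arrays without KO 1 and SNP 1. Whether RNA or array quality had a part in how KO 1 and SNP 1 stood apart was not tested. Of the 4 genes of the GMP sort, Kit and Cd34 were at 6.29 and 8.55 on SNP 1, below their ranges of 8.01 to 8.97 and 10.45 to 10.78 on the other 11. Fcgr3 and Fcgr2b, the Fc receptor genes of the sort, were at 8.93 and 7.70 on SNP 1, above the values of 8.74 and 8.14 and of 7.43 and 7.56 on SNP 2 and SNP 3. They were not above all other arrays, as Fcgr3 was at 9.06 on WT 2 and Fcgr2b at 7.81 on KO 3. The Gfi1 probe sets were no lower in the KO group than in WT (KO minus WT 0.66 ± 0.21, limma adjusted p = 0.80). Whether they lie in the deleted part is not given in the sources used here, so they check nothing. Y-linked genes were low on WT 3, wtKI 2 and wtKI 3 and high on the other 9 arrays, so both sexes are present within WT and wtKI.

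None of the 8 primary granule genes passed limma's test, with Benjamini-Hochberg adjustment over 14201 genes and a threshold of 0.05, in any comparison of genotypes. Among all genes, 0% passed in KO minus WT, 0% in SNP minus wtKI, 0% in wtKI minus WT, 0% in SNP minus WT and 0.0141% in SNP minus KO. The last is 2 genes, and 0 genes and 0 members passed in SNP minus KO with the replicate number as a block. Without adjustment, a p under 0.05 was reached by 0 members in KO minus WT against 4.72% of all genes, by 1 in SNP minus wtKI (Prss57) against 8.84%, and by 1 in wtKI minus WT (Prss57) against 3.06%. It was reached by 2 in SNP minus WT (Elane and Prtn3) against 15.9%, and by 0 in SNP minus KO against 12.6%. In the F-test over the 4 genotypes, which called 0% of genes and gave 9.08% an unadjusted p under 0.05, the smallest adjusted p of a member was 0.51, that of Prss57.

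The 10 arrays without KO 1 and SNP 1 also gave no member that passed, while 0.0282% of all genes passed in KO minus WT and 0% in the other comparisons. An unadjusted p under 0.05 was reached there by 0 members in KO minus WT against 6.78% of genes, by Ctsc and Prss57 in SNP minus wtKI against 8.38%, and by Prss57 in wtKI minus WT against 7.41%. It was reached by Ctsc, Elane and Prtn3 in SNP minus WT against 16.1%, and by Ctsc and Prtn3 in SNP minus KO against 15.6%. In the F-test it was reached by Ctsc and Prss57 (adjusted p = 0.22 and 0.27) against 12.5%.

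**Figure D1:**
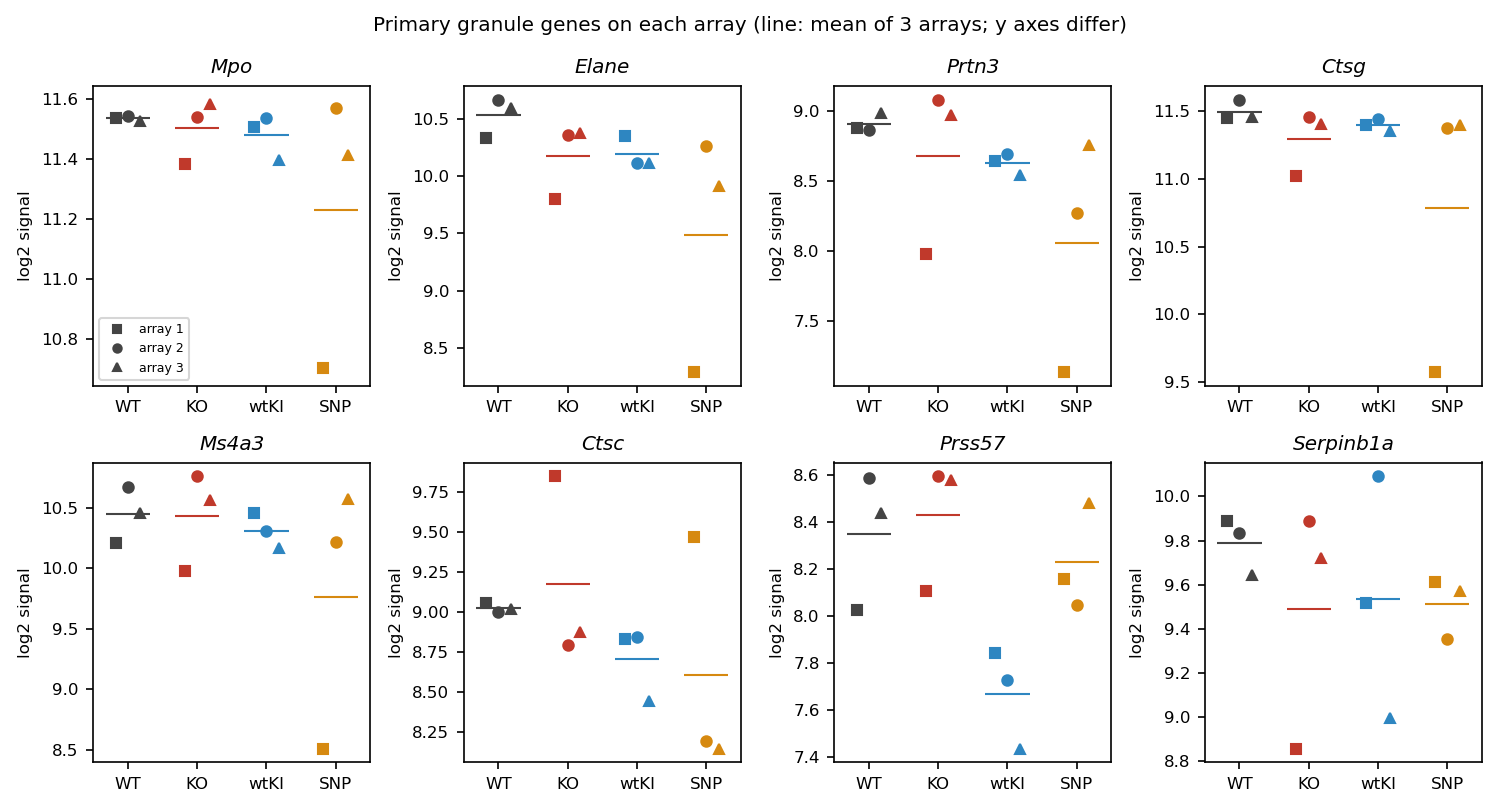
Log2 signal of each of the 8 genes (y axes differ) on the 3 arrays of each genotype, with horizontal lines at the group means. SNP 1 is the lowest array for Mpo, Elane, Prtn3, Ctsg and Ms4a3, while KO 1 and SNP 1 are the highest for Ctsc, and all 3 wtKI arrays are the lowest for Prss57.

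Mpo had the narrowest range of the members once SNP 1 was set aside. It was at 11.54, 11.54 and 11.53 on the WT arrays, at 11.38, 11.54 and 11.58 on the KO arrays, at 11.51, 11.54 and 11.40 on the wtKI arrays and at 10.70, 11.57 and 11.41 on the SNP arrays. All groups overlapped, and only SNP 1 was clearly below the others. KO minus WT was -0.03 ± 0.21 (SE, 3 arrays a group), with a 95% confidence interval from -0.50 to 0.43, and SNP minus wtKI was -0.25 ± 0.21 (limma adjusted p = 0.66). On the 10 arrays Mpo spanned 0.19, and SNP minus wtKI was 0.01 ± 0.13. The pooled SD within groups of these 10 arrays was 0.064, against a median of 0.24 over all genes, which put Mpo at the 1.02 percentile of all genes.

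Mpo rests on 14 probe sets, and 3 of them left the rest on wtKI 1. Probe sets 10380180, 10380181 and 10380182 were at 10.92, 8.77 and 10.78 there. On the other arrays outside KO 1 and SNP 1 they ranged from 12.05 to 12.30, from 11.44 to 11.71 and from 12.02 to 12.33. The other 11 Mpo probe sets showed no such drop on wtKI 1, and the value per gene, made by median polish, was 11.51. The highest probe set of an array lay between 12.23 and 12.44, so these Mpo probe sets sat at the top of the measured range. Whether higher transcript levels would still have raised them was not tested.

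**Figure D2:**
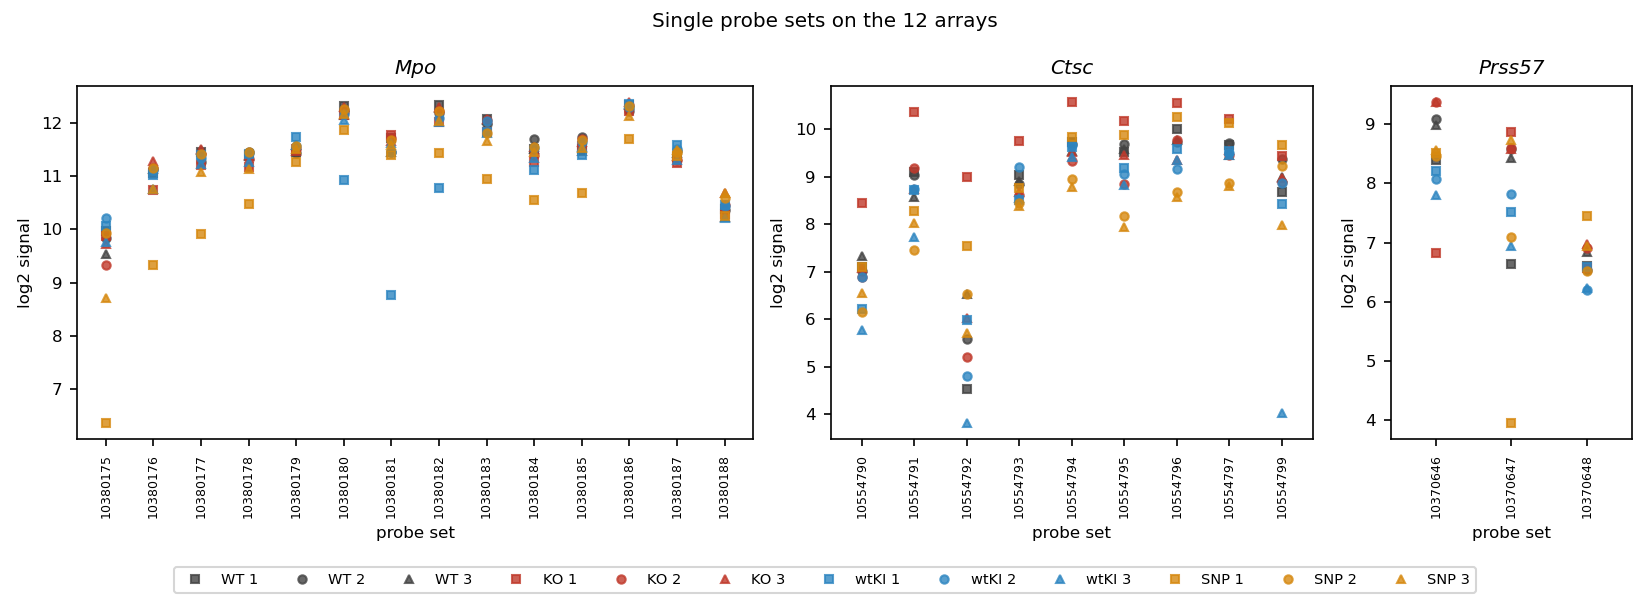
Log2 signal of each probe set of Mpo, Ctsc and Prss57 on the 12 arrays, with colour for genotype and shape for array number. For Mpo, wtKI 1 leaves the other arrays at 3 neighbouring probe sets. For Ctsc, SNP 2 and SNP 3 lie below the WT arrays at 7 of 9 probe sets. For Prss57, the 3 probe sets differ in how they order the arrays.

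Elane, the gene with the reported link to GFI1, was highest in WT and lowest in SNP. It was at 10.34, 10.67 and 10.60 on the WT arrays, at 9.80, 10.36 and 10.38 on the KO arrays, at 10.35, 10.12 and 10.12 on the wtKI arrays and at 8.29, 10.26 and 9.91 on the SNP arrays. The 3 SNP arrays were below the 3 WT arrays, and each other pair of neighbouring groups in the order WT, wtKI, KO, SNP overlapped. SNP minus WT was -1.05 ± 0.41 with a confidence interval from -1.95 to -0.15 (unadjusted p = 0.026, limma adjusted p = 0.29). Without KO 1 and SNP 1 it was -0.45 ± 0.17 (adjusted p = 0.27), with 6 of 6 probe sets lower and 4 of 6 without overlap. KO minus WT was -0.36 ± 0.41, with a confidence interval from -1.26 to 0.54. On the 10 arrays it was -0.17 ± 0.17, with an interval from -0.55 to 0.22.

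Prtn3, the neighbour of Elane, had the same order of WT and SNP. It was at 8.88, 8.86 and 8.99 in WT, at 7.98, 9.08 and 8.98 in KO, at 8.64, 8.70 and 8.55 in wtKI and at 7.13, 8.28 and 8.76 in SNP. All wtKI and all SNP arrays were below the WT arrays, while KO 2 and KO 3 were at the WT level. SNP minus WT was -0.86 ± 0.38 (unadjusted p = 0.047, limma adjusted p = 0.31), and -0.39 ± 0.17 (adjusted p = 0.30) on the 10 arrays. SNP minus KO was -0.62 ± 0.38 on 12 arrays and -0.51 ± 0.18 (adjusted p = 0.25) on 10, where 4 of 4 probe sets were lower without overlap.

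Ctsg, too, varied little outside the arrays that stood apart. Its values were 11.45, 11.58 and 11.46 in WT, 11.02, 11.45 and 11.40 in KO, 11.39, 11.44 and 11.35 in wtKI and 9.57, 11.38 and 11.40 in SNP. The 10 arrays spanned 0.23, with a pooled SD within groups of 0.053, at the 0.514 percentile of all genes. On all 12 arrays the SD was 0.54, at the 81.9 percentile. SNP minus wtKI was -0.61 ± 0.39 (limma adjusted p = 0.59) with SNP 1 and -0.01 ± 0.13 on the 10 arrays. The wtKI and the SNP arrays were each below all WT arrays, with differences of -0.10 ± 0.39 and -0.71 ± 0.39 on 12 arrays and of -0.10 ± 0.12 and -0.11 ± 0.13 on 10.

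Prss57 was lowest in the mice with the common human allele. It was at 8.03, 8.59 and 8.44 in WT, at 8.11, 8.60 and 8.58 in KO, at 7.84, 7.73 and 7.44 in wtKI and at 8.16, 8.05 and 8.48 in SNP. All 3 wtKI arrays were below the other 9, which overlapped each other. wtKI minus WT was -0.68 ± 0.22, with a confidence interval from -1.16 to -0.20 (unadjusted p = 0.0095, limma adjusted p = 1.00). SNP minus wtKI, which shares the wtKI arrays, was 0.56 ± 0.22 (unadjusted p = 0.026, adjusted p = 0.55). Both differences were as large on the 10 arrays, at -0.68 ± 0.19 and 0.60 ± 0.22. Only 1 of the 3 Prss57 probe sets separated wtKI from WT, and probe set 10370647 ran from 3.95 on SNP 1 to 8.87 on KO 1. Of the wtKI arrays 2 were low for Y-linked genes, and with sex as a term wtKI minus WT was -0.66. The unadjusted p of the F-test over genotypes was 0.020 without and 0.086 with that term. This F-test p depended on the summary of the probe sets. It was 0.22 with their plain mean and 0.58 with the probe set of the highest mean. Among the arrays with high Y-linked genes, wtKI 1 was at 7.84 and WT 1 and WT 2 at 8.03 and 8.59, and the part of sex in the difference was not tested beyond these values.

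Ctsc, which activates the 4 proteases, was ordered differently from them. It was at 9.05, 8.998 and 9.02 in WT, at 9.85, 8.79 and 8.87 in KO, at 8.83, 8.84 and 8.44 in wtKI and at 9.47, 8.19 and 8.14 in SNP. KO 1 and SNP 1 were the 2 highest arrays, whereas SNP 2 and SNP 3 were the 2 lowest and lay below all others. On all 12 arrays SNP minus WT was -0.42 ± 0.36 (limma adjusted p = 0.54), and the groups overlapped through SNP 1.

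Without KO 1 and SNP 1, Ctsc had the lowest p of the members. SNP minus WT was -0.85 ± 0.16, with a confidence interval from -1.21 to -0.50 (unadjusted p = 0.00038, limma adjusted p = 0.15). This ranked 31 of 14201 genes by p, in a comparison where 16.1% of genes had an unadjusted p under 0.05. The 2 SNP arrays were below the 3 WT arrays at 7 of 9 probe sets. SNP minus wtKI was -0.54 ± 0.16 (adjusted p = 0.52) and SNP minus KO -0.66 ± 0.17 (adjusted p = 0.18). In these fits the SNP group holds 2 arrays. One probe set, 10554799, was at 4.01 on wtKI 3 and between 7.99 and 9.37 on the other 9 of the 10 arrays, and the value per gene of wtKI 3 was 8.44.

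For Serpinb1a and Ms4a3 the confidence interval of each of the 5 differences between genotypes included 0. On all 12 arrays the same held for Mpo, Ctsg and Ctsc. Serpinb1a was at 9.89, 9.83 and 9.64 in WT, at 8.86, 9.89 and 9.72 in KO, at 9.52, 10.09 and 8.996 in wtKI and at 9.61, 9.36 and 9.57 in SNP. The SNP arrays were below the WT arrays, with a difference of -0.27 ± 0.31 (limma adjusted p = 0.63), and the KO and wtKI arrays lay on both sides of them. Ms4a3 was at 10.21, 10.67 and 10.46 in WT, at 9.98, 10.76 and 10.56 in KO, at 10.46, 10.31 and 10.17 in wtKI and at 8.51, 10.22 and 10.57 in SNP. All groups overlapped for Ms4a3. SNP minus wtKI was -0.55 ± 0.44 for this gene with SNP 1 and 0.08 ± 0.19 without the arrays that stood apart.

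**Figure D3:**
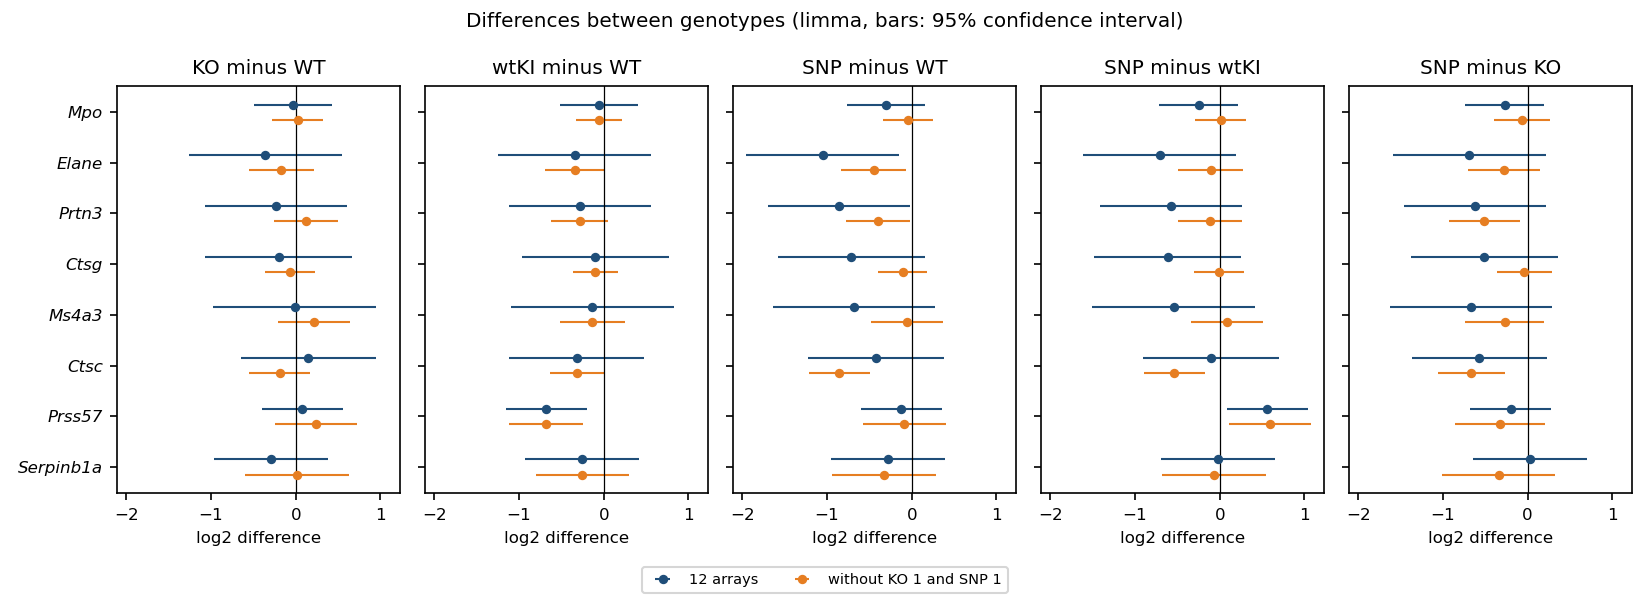
Log2 difference of each gene in 5 comparisons of genotypes, with 95% confidence intervals, from the fit to all 12 arrays (blue) and from the fit without KO 1 and SNP 1 (orange). The KO minus WT intervals all include 0. In SNP minus WT the orange intervals of Ctsc, Elane and Prtn3 end below 0, and none of these differences passed the adjusted test.

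Read by comparison, the loss of Gfi1 went with no called change of a primary granule gene. KO minus WT had 2 members higher and 6 lower, with a median of -0.12 against -0.02 over all genes, and on the 10 arrays 5 were higher and 3 lower, with a median of 0.02. No member separated KO from WT on 12 arrays, against 11.8% of all genes. The variant against the common human form had 1 member higher and 7 lower, with a median of -0.40 against -0.02. This median was -0.04 on the 10 arrays. Prss57 was the only member whose SNP and wtKI arrays did not overlap, against 14.6% of all genes.

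Mean values in both knock-ins lay below WT. All 8 members were lower in wtKI than in WT, with a median of -0.27 against -0.01 over all genes, and 4 of them (Prss57, Ctsc, Prtn3 and Ctsg) without overlap, against 6.83% of all genes. For Ctsg the margin was narrow, with 11.445 on wtKI 2 and 11.450 on WT 1. All 8 were also lower in SNP than in WT, with a median of -0.55 against -0.01, and -0.22 on the 10 arrays. Elane, Prtn3, Ctsg and Serpinb1a did so without overlap, against 12.9% of all genes. The comparisons share the WT arrays. SNP minus KO had 1 member higher and 7 lower, with a median of -0.54 against 0.01, all with overlapping groups, against 14% of genes without overlap. All 8 were lower on the 10 arrays, with a median of -0.30, and 6 of them (all but Mpo and Ms4a3) had SNP 2 and SNP 3 below KO 2 and KO 3, against 24.9% of all genes. Here, too, the margin of Ctsg was narrow, with 11.399 as the higher SNP value and 11.404 as the lower KO value. The test of whether the variant effect (SNP minus wtKI) differs from the loss effect (KO minus WT) gave an adjusted p of 0.99 for all 8, and 0% of genes passed it, with 4.51% at an unadjusted p under 0.05 and 0 members among them. On the 10 arrays 7.65% of genes and again 0 members had such a p.

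On SNP 1, a group of 5 members was low together. Compared with the mean of SNP 2 and SNP 3, the log2 difference was -1.88 for Ms4a3, -1.82 for Ctsg, -1.80 for Elane, -1.39 for Prtn3 and -0.79 for Mpo. All 37 probe sets of these 5 genes were lower. Over all genes the 5th percentile of the same difference was -1.58, so Ms4a3, Ctsg and Elane were among the lowest 5% of genes. Ctsc was higher by 1.30, with 9 of 9 probe sets higher, at the 94.8 percentile of all genes, and Prss57 and Serpinb1a differed by -0.11 and 0.15.

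On KO 1 the same 5 members were lower and Ctsc was higher. The difference from the mean of KO 2 and KO 3 was -1.05 for Prtn3, -0.68 for Ms4a3, -0.57 for Elane, -0.41 for Ctsg and -0.18 for Mpo. These lay between the 8.98 and the 38.6 percentile of all genes, whose 5th percentile was -1.39. Ctsc was higher by 1.02, again with 9 of 9 probe sets higher and at the 95.1 percentile. Unlike on SNP 1, Serpinb1a was also low, at -0.95, and Prss57 was at -0.48.

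**Figure D4:**
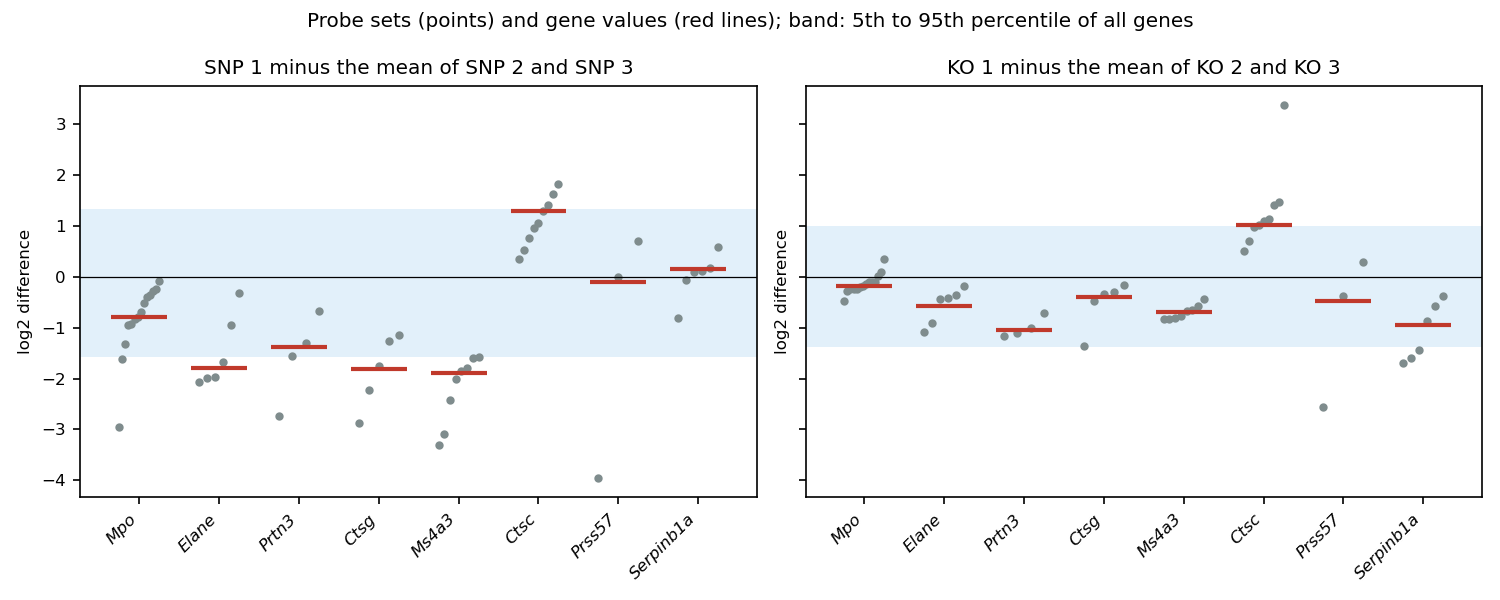
Log2 difference of SNP 1 (left) and of KO 1 (right) from the mean of the other 2 arrays of its genotype, for each probe set (grey points) and each gene (red lines), with the 5th to 95th percentile of all genes as a band. Mpo, Elane, Prtn3, Ctsg and Ms4a3 lie below 0 and Ctsc lies above 0 on both arrays.

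Markers of several other cell types were high on SNP 1, where the granule genes were low. Of 17 late neutrophil genes 17 were higher there than on SNP 2 and SNP 3, with a median difference of 3.63, as were 11 of 11 erythroid genes (median 3.84), 8 of 8 B-lineage genes (median 2.60) and 7 of 7 T and NK cell genes (median 2.53). Higher in part were the monocyte and macrophage (7 of 10, median 0.59) and the dendritic cell and MHC class II genes (7 of 10, median 1.56). So were the mast cell, basophil and eosinophil genes (8 of 11, median 0.30). Of 5 megakaryocyte genes 2 were higher, and of 11 stem and early progenitor genes 5, both with a median of -0.07. Ribosome biogenesis genes were lower in 16 of 17 (median -1.22). On KO 1 the erythroid genes were higher in 10 of 11 (median 1.53) and the late neutrophil genes in 11 of 17 (median 0.89). The mean of the late neutrophil list, relative to WT, was 3.63 on SNP 1, 0.27 on KO 1 and between -0.98 and 0.48 on the other 10 arrays, and the mean of the 8 members was -1.08, -0.39 and between -0.45 and 0.08. The part of these other cells in the granule values was not tested, and in bulk samples fewer cells of a type and less RNA per cell cannot be told apart.

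**Figure D5:**
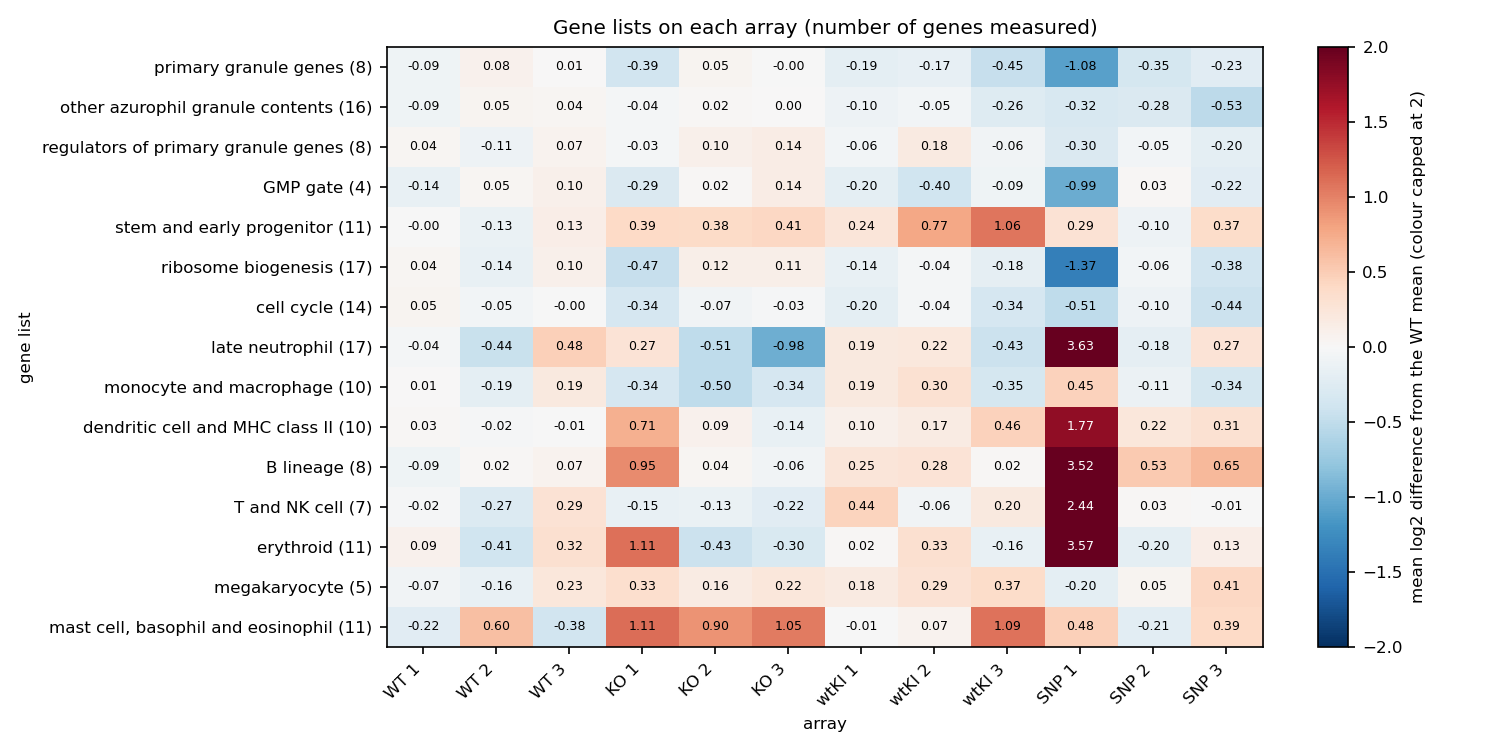
Mean log2 difference from the WT mean for each gene list (rows, number of genes measured in brackets) on each array (columns). The column of SNP 1 combines a low mean of the primary granule genes, -1.08, with a high mean of the late neutrophil genes, 3.63, and of the erythroid genes, 3.57.

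How the members varied together depended on these arrays. Across all 12 arrays, Pearson's r among Mpo, Elane, Prtn3, Ctsg and Ms4a3 ran from 0.87 to 0.97, and Ctsc had r from -0.48 to -0.36 with each of them. Across the 10 arrays the first range was 0.18 to 0.68 and the second 0.22 to 0.73. These are descriptions over arrays that share genotypes, and all of the 12-array values include the low point of SNP 1. The neighbours Elane and Prtn3 had r of 0.90 on 12 arrays and 0.43 on 10. The genes most like the mean of the members on 12 arrays were Ctps (r 0.98), Suclg1 (0.97), Galk2 (0.97), Sec23b (0.96) and Psmb2 (0.96). On the 10 arrays they were Zw10 (0.97), Tsfm (0.96), Rnaseh2b (0.96), Clptm1l (0.94) and Ccdc115 (0.94), with no gene in both groups.

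Other azurophil granule contents, such as lysosomal hydrolases and granule membrane proteins, were measured for 16 of 21 listed genes. None passed limma's test in any comparison. In KO minus WT 6 were higher and 10 lower, with a median of -0.04, and in SNP minus wtKI 4 were higher and 12 lower, with a median of -0.15. KO minus WT on the 10 arrays turned to 10 higher and 6 lower, with a median of 0.01, and SNP minus wtKI had 2 higher and 14 lower, with a median of -0.37. The largest differences of SNP minus wtKI were those of Cst7, which encodes the cathepsin C inhibitor cystatin F, at -1.01 ± 0.63, of the acid glucosidase gene Gaa at -0.89 ± 0.27 and of the glucuronidase gene Gusb at -0.80 ± 0.25 (adjusted p between 0.55 and 0.58). On the 10 arrays Cst7 had a difference of -0.002, while Gaa and Gusb were at -0.77 and -0.50. In KO minus WT the largest were Nkg7 at 0.63 ± 0.45, Cd68 at 0.49 ± 0.36 and the sulphatase gene Arsb at -0.41 ± 0.37. They were at 0.82, 0.22 and 0.01 on the 10 arrays, and Arsb was at 6.51 on KO 1 against 7.82 and 7.75 on KO 2 and KO 3. Without KO 1 and SNP 1, SNP minus WT had 15 of 16 lower, with a median of -0.44, and 6 at an unadjusted p under 0.05, against 16.1% of all genes.

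Genes that supply haem to myeloperoxidase or fold it in the endoplasmic reticulum were measured for 11 of 12, and none passed in any comparison. In KO minus WT 8 were higher and 3 lower, with a median of 0.12, and on the 10 arrays 9 were higher and 2 lower. On those 10 arrays 9 of 11 were lower in SNP minus WT and 10 of 11 in SNP minus KO, with medians of -0.08 and -0.18. In SNP minus wtKI on 12 arrays 5 were higher and 6 lower, with a median of -0.12, and on 10 arrays 3 were higher and 8 lower. Alas1, the rate-limiting enzyme of haem synthesis outside the red cell lineage, was at -0.76 ± 0.41, Fech at 0.73 ± 0.43 and Uros at 0.71 ± 0.29 (limma adjusted p between 0.55 and 0.57), and on the 10 arrays these were -0.15, 0.11 and 0.43. The 3 largest of KO minus WT were the same genes, Alas1 at -0.36, Uros at 0.35 and Fech at 0.24, and these were -0.18, 0.07 and 0.12 on the 10 arrays. Fech and Uros also act in red cell precursors, and the erythroid list was high on SNP 1; their part in this was not tested.

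Of the genes for granule sorting and docking, 14 of 15 were measured and none passed. In KO minus WT 2 were higher and 12 lower, with a median of -0.11, and Vps33b, which encodes a protein of vesicle tethering and fusion, was at -0.81 ± 0.22 without overlap (limma adjusted p = 0.57, and 0.29 on the 10 arrays). Rab27a, needed for granule docking, was at -0.26 ± 0.20, and Lyst, mutated in Chediak-Higashi syndrome, at -0.24 ± 0.27, or -0.17 and -0.37 on the 10 arrays. There 4 were higher and 10 lower, with a median of -0.05. In SNP minus wtKI 5 were higher and 9 lower, and 7 and 7 on the 10 arrays. Vps16 was at -0.54 ± 0.19, Stx11 at 0.48 ± 0.22 and Lyst at 0.47 ± 0.27 on 12 arrays, and at -0.34, 0.28 and 0.15 on 10.

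Transcription factors known to act on primary granule genes were measured for 8 of 9, and none passed. In KO minus WT 3 were higher and 5 lower, and on the 10 arrays 5 were higher and 3 lower. Beside Gfi1 itself, Cebpe, which drives later granule stages, was at 0.37 ± 0.27 and Cebpa, the founding factor of the granulocyte line, at -0.21 ± 0.28, or 0.53 and 0.002 on the 10 arrays. In SNP minus wtKI 2 were higher and 6 lower, and 3 and 5 on the 10 arrays. Myb was at -0.60 ± 0.31 there without overlap, but at 8.93 on SNP 1 alone and between 10.22 and 10.49 on the other SNP and wtKI arrays, and its difference on the 10 arrays was -0.15. Cbfb was at -0.44 ± 0.21 and Klf5 at 0.42 ± 0.31, and these were -0.19 and 0.03 on the 10 arrays.

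A list of protease inhibitors other than Serpinb1a, made of serpins, cystatins, stefins, Slpi and Pi3, was measured for 8 of 14 genes. Cystatins and stefins are inhibitors of cysteine proteases, and which listed genes act on the serine proteases of the granule was not tested. Serpina3g, a mouse serpin, was at 6.09, 6.50 and 6.13 in WT, at 7.51, 8.02 and 7.99 in KO, at 6.42, 6.69 and 6.48 in wtKI and at 4.69, 5.34 and 6.31 in SNP. The KO arrays were above all 9 others and the SNP arrays below all wtKI arrays. KO minus WT was 1.60 ± 0.34 (limma adjusted p = 0.30), and 1.77 ± 0.26 (adjusted p = 0.097) on the 10 arrays. SNP minus wtKI was -1.09 ± 0.34 (adjusted p = 0.55), and -0.71 ± 0.26 on the 10 arrays.

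Slpi, the secretory leukocyte protease inhibitor, which blocks elastase and cathepsin G, went the other way in the knock-out. It was at 9.19, 8.91 and 9.09 in WT and at 7.94, 8.28 and 8.61 in KO, without overlap, a difference of -0.79 ± 0.23 (limma adjusted p = 0.71). On the wtKI arrays it was between 9.07 and 9.64 and on the SNP arrays between 8.90 and 9.44. Serpinb6b was at 0.64 ± 0.86 in KO minus WT. In SNP minus wtKI, Stfa1 was at 0.76 ± 0.30, or 0.45 on the 10 arrays, and Serpinb6a at -0.25 ± 0.33. None of the 8 passed the test in any comparison.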

How the data were processed

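The deposited table holds log2 signals made by the authors with RMA, per the submitters' processing notes. The version of RMA, its settings and the genome build were not given in the sources used here. Its 105661 lines are probe sets of the exon-level annotation, of which 98975 have 1 gene symbol, 1703 several and 4983 none. Lines with 1 symbol were combined into 1 value per gene and array by median polish, giving 14201 genes with a median of 5 probe sets. Symbols were updated with a RefSeq table of GRCm38.p6, which held 14145 of the genes. Every probe set reaches 6.14 on some array, so lower genes are not analysed here.

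Groups came from the labels. All 12 arrays entered 1 fit in limma 3.58.1 (R 4.3.3, lmFit and eBayes), with Benjamini-Hochberg adjustment over all genes and a threshold of 0.05. The fit was run on simulated data with known changes in KO and independent noise, equal on all arrays for a gene. That check held no arrays that stand apart, so it cannot speak to the effect of KO 1 and SNP 1. Errors after ± are standard errors. The number of arrays limits the precision. The members, companion lists and alternatives were chosen with earlier results of these data known. Named companions are those past the threshold and the 3 with the largest difference in KO minus WT and in SNP minus wtKI, and the genes most like the members are the 5 with the highest Pearson correlation on 12 and on 10 arrays. Alternatives covered probe set summary, normalization, a filter on dim genes, the variance model, array weights, sex, the replicate number as a block, and leaving out arrays. Same-numbered KO and SNP arrays deviated together from their group means (correlations of 0.353, 0.206 and 0.144). SNP minus KO was therefore also read with the block, from the values and not from the labels. KO 1 and SNP 1 both stood apart, and with 3 arrays a group this bears on all 3 correlations. They cannot show that the samples were paired.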

Additional observations from a re-analysis of the deposited data

How the results depend on the processing

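In 25 settings, 1 of them (the replicate block on the KO and SNP arrays alone) chosen after seeing the data, 1152 differences of single members were recomputed and none passed the threshold in a comparison of 2 groups or of 2 effects. The lowest adjusted p was 0.11, that of Elane in SNP minus WT without SNP 2. Of these differences 55 changed sign, 11 of them without KO 1 and SNP 1, 9 without SNP 1, 8 without KO 1 and 7 with array weights. The one call of a member came with array weights, where 1 member, Prss57, passed the F-test over the 4 genotypes (adjusted p = 0.034). The weights ran from 0.165 for SNP 1 to 6.83 for KO 2, and which of them made the call was not tested. Leaving out 1 array moved the Elane difference of SNP minus WT between -1.44 (without SNP 2) and -0.45 (without SNP 1), that of Ctsc between -0.85 (without SNP 1) and -0.19 (without SNP 3), and that of Prss57 in wtKI minus WT between -0.84 and -0.56.

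Over all genes, array weights called 495 in KO minus WT, 522 in SNP minus KO, 15 for the difference of effects and 777 in the F-test, against 0, 2, 0 and 0. They called 4 in SNP minus WT and 4 in wtKI minus WT, against 0 and 0. Leaving out 1 array gave 0 to 5 calls in each comparison, and the other settings 0 to 13, the highest in SNP minus KO with the plain mean of the probe sets. The replicate number as a block called 0 members and 0 genes in every comparison. The block fitted to the KO and SNP arrays alone also called 0 members and 0 genes, and the block changed no other call than those 2 genes of SNP minus KO. In the other pairs of groups the same-numbered arrays correlated in their deviations by -0.186 to 0.112. The labels do not say what the numbers stand for, so these values cannot show whether the samples were paired.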
